A study of Mus musculus with 2 samples.

Results

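Transporters that carry amino acids, small peptides, taurine, creatine, lactate and other monocarboxylates across cell membranes were examined in mouse uterus taken between implantation sites on day 8 of pregnancy. The rule named 37 solute carrier genes by what they carry. All probe sets annotated to 1 of these genes alone were used, which gave 48 probe sets for 33 genes, of 12393 genes that the array represents in the same way. Slc16a10, Slc36a1, Slc43a1 and Slc43a2 had no such probe set and were not analysed here. The rule goes by gene name and uses no measured value, but the set was drawn up with earlier results of these data known, Slc15a2 among them.

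The compared samples were inter-implantation uterus from Cbs null females and the same tissue from control females, both on a C57Bl/6J X OLA129 background and 4 months old. Cbs encodes cystathionine beta-synthase, the enzyme that joins homocysteine to serine on the way to cysteine. The null females were homozygous for the deficiency. The labels give neither the genotype of the controls nor the altered part of the gene, and do not say whether a sample was 1 animal or a pool. Each group had 1 Affymetrix array, so the differences below are descriptions of 2 arrays, without any statistical test.

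Amino acids cross membranes through several carrier families with overlapping substrates. Many are driven by the sodium gradient and load the cell (in SLC1, SLC6 and SLC38), whereas others exchange one amino acid for another (most SLC7 light chains, which need an SLC3 heavy chain to reach the surface). Peptides enter with protons through SLC15, and lactate, pyruvate and ketone bodies pass with protons through several SLC16 carriers. In the pregnant uterus such carriers move nutrients between blood, tissue and luminal fluid. Cysteine, the product of the pathway in which Cbs acts, is a precursor of taurine and, with glutamate and glycine, of glutathione.

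Of the 33 transporter genes on the array, 19 had a signal above the floor on 1 or both arrays, which is 57.6% of them, against 67.8% of all genes. The floor was a signal of 43.2, the 40th percentile of both arrays together, and weaker values were raised to it because their order is unreliable. A gene was represented by its brightest probe set, and its log2 ratio is that of Cbs null over control. Slc15a2 and Slc1a1 were at least 2-fold higher in the Cbs null sample and no transporter was at least 2-fold lower. These 2 genes are 10.5% of the 19 above the floor, while 0.797% of the 8407 measured genes passed the rule as higher and 0.714% as lower. At a 1.5-fold rule the transporter counts were again 2 higher and 0 lower, beside 3.59% and 3.38% of all measured genes.

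Most of the family differed little. The 18 transporters above the floor on both arrays had a median log2 ratio of 0.12, against 0.02 for the 7942 genes above it on both. In the Cbs null sample 10 were higher and 8 lower, which is 55.6% higher, close to the 53.6% of all 7942 genes. Of these 18, 16 lay within 1.5-fold (88.9%, against 93.8% of all such genes), between -0.50 and 0.50. A second probe set of the same gene on the same arrays gives a measure of error, and over 2757 genes with such a pair the technical SD of a log2 ratio was 0.22. That value was 0.26 where any of the 4 signals was under 4 times the floor and 0.15 where all were brighter. Variation between mice is not part of it.

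**Figure D1:**
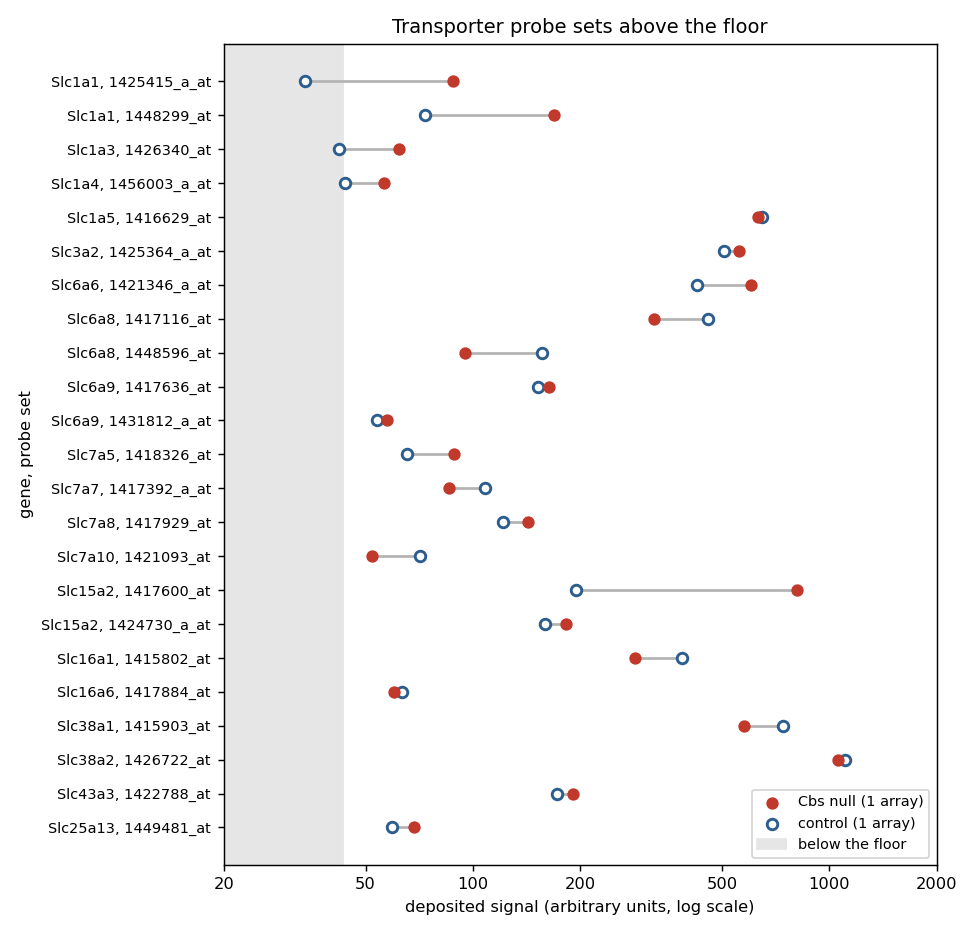
Deposited signal (arbitrary units, log axis) of each transporter probe set above the floor on at least 1 array, with a filled point for the Cbs null array, an open point for the control array and shading below the floor of 43.2. The widest gaps are those of Slc15a2 probe set 1417600_at and of both Slc1a1 probe sets shown.

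Among the glutamate and neutral amino acid carriers of the SLC1 family, Slc1a1 stood apart. It encodes the epithelial and neuronal glutamate and aspartate carrier, which also takes up cysteine. Its brightest probe set, 1448299_at, read 168.7 in the Cbs null sample and 73.6 in the control sample, a log2 ratio of 1.20 or 2.29-fold. Its second probe set, 1425415_a_at, read 87.8 in the Cbs null sample and 33.8 in the control sample, where it was under the floor, so it was at least 2.03-fold higher. Both probe sets therefore passed the 2-fold rule, although the second passed the floor through the Cbs null sample alone. The third, 1460386_a_at, was below the floor in both, at 37.1 in the Cbs null sample and 10.8 in the control sample. Slc1a1 ranked 33 from the highest among the 7942 genes with both signals above the floor. Its level was low, and the control value lay less than 2-fold above the floor. The 2-fold call therefore needs a floor under the control value. With the floor at the 60th percentile that value was under it and the ratio became a bound below 2-fold, and with the 3 probe sets averaged, the third counting as equal at the floor, Slc1a1 was not called either.

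The other SLC1 genes gave smaller differences or weak signals. Slc1a3, the astroglial type glutamate and aspartate carrier, read 61.9 in the Cbs null sample and 42.1 in the control sample, slightly under the floor, at least 1.43-fold higher. Because it passed the floor only through the Cbs null sample, its direction was fixed by the filter, and its other 2 probe sets were under the floor on both arrays. Slc1a4, an exchanger of alanine, serine and cysteine, read 56.4 in the Cbs null sample and 43.7 in the control sample, with both values close to the floor and its other 2 probe sets under it. Slc1a5, the glutamine exchanger, was bright and nearly equal, at 629.8 in the Cbs null sample and 645.7 in the control sample. Slc1a2, the main glial glutamate carrier, was at 0.8 in the Cbs null sample and 0.7 in the control sample, far below the floor. The 3 SLC1 genes above the floor on both arrays had a median log2 ratio of 0.37, and their order ran from Slc1a5 at -0.04 through Slc1a4 at 0.37 to Slc1a1 at 1.20.

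The peptide carriers showed the largest difference of the set and also its poorest probe set agreement. Slc15a2 encodes the high-affinity peptide transporter known from kidney, where it recovers di- and tripeptides. Probe set 1417600_at read 811.5 in the Cbs null sample and 194.6 in the control sample, a log2 ratio of 2.06, and ranked 7 from the highest among all genes above the floor on both arrays. Probe set 1424730_a_at read 182.1 in the Cbs null sample and 158.9 in the control sample, a log2 ratio of 0.20. Both probe sets were well above the floor on both arrays. Their log2 ratios differed by 1.86, and 2 of the 2757 genes with such a pair, Slc15a2 included, had a difference of at least that size. Over all such genes, 15 (0.544%) had a pair more than 2-fold apart, and the other 2 transporters with such a pair, Slc6a8 and Slc6a9, did not. In all 3 the pair went the same way, whereas 34.3% of all pairs went opposite ways. By the platform's naming, a probe set ending in _a_at was designed against alternative transcripts of 1 gene, but the part of Slc15a2 that each probe set reads is not stated in the sources. The size of the Slc15a2 difference therefore depends on the probe set, and the mean of both gave a log2 ratio of 1.13. Slc15a1, the intestinal peptide transporter, and Slc15a3, a peptide and histidine carrier of lysosomes, were under the floor on both arrays.

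**Figure D2:**
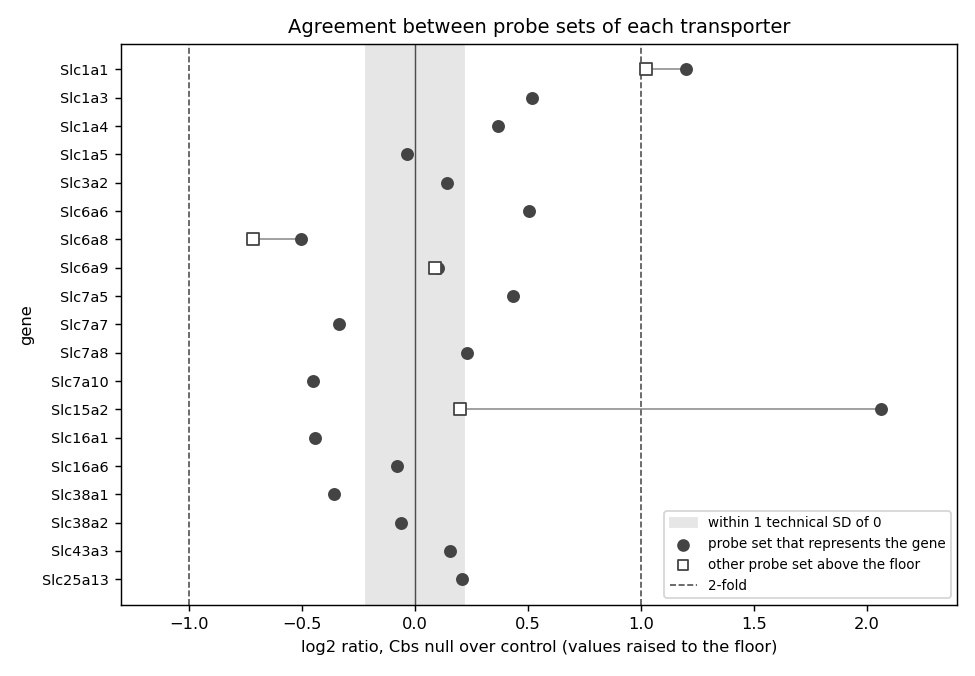
Log2 ratio of Cbs null over control, with values raised to the floor, for each transporter probe set above the floor on at least 1 array. Round points are the probe set that represents the gene, squares the others, shading 1 technical SD (0.22) around 0 and dashed lines 2-fold. The Slc1a1 square and the Slc1a3 point are lower bounds. Among genes with a pair of probe sets above the floor on both arrays, the points lie far apart for Slc15a2 and close together for Slc6a8 and Slc6a9. The place of the Slc1a1 square is set by the floor.

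Slc1a1 and Slc15a2 are the transporters at least 2-fold higher in the Cbs null sample. For each, the 250 bases before its most upstream annotated start are shown, 5′ to 3′, from RefSeq on GRCm38.p6. Windows before other starts of a gene were not examined. The Slc1a1 window is chr19:28834885-28835134 on the plus strand and the Slc15a2 window chr16:36784963-36785212 on the minus strand. Capitals mark matches to the GC box GGGCGG and to the estrogen response element core GGTCA on either strand.
Slc1a1: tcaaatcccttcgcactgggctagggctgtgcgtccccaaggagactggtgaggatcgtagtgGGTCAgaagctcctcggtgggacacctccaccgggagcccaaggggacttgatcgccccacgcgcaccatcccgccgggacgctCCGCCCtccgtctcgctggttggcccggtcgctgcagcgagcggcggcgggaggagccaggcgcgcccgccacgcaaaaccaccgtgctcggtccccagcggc
Slc15a2: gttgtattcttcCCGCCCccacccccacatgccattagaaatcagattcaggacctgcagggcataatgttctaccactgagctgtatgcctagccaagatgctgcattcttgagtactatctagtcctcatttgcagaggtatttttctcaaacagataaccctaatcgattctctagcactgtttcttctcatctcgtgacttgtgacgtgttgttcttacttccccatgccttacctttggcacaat
The windows differ in composition. That of Slc1a1 was 70.4% G and C with 27 CpG dinucleotides, that of Slc15a2 45.2% with 4, and the medians over 27025 gene promoters were 52.0% and 6. Each window held 1 GC box, a motif found in 17 of 25 transporter promoters and in 33.0% of all promoters of that length. These 25 belong to those of the 37 named genes that had a promoter window. They include Slc16a10, Slc36a1, Slc43a1 and Slc43a2, which had no probe set of their own. The core GGTCA lay in the Slc1a1 window, in 7 of the 25 transporter promoters and in 34.9% of all. The C/EBP-ATF element of amino acid response genes, TGATGNAA, was in neither window, in 1 of the 25 (Slc7a7) and in 3.53% of all. The antioxidant response element core TGACNNNGC was in neither, in 4 of the 25 and in 10.1% of all. These are matches of letters in a window and not sites of binding. The matches in these windows do not overlap each other.

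The SLC6 carriers of taurine and creatine went in opposite directions. Slc6a6, the taurine transporter, read 604.6 in the Cbs null sample and 426.2 in the control sample, 1.42-fold higher, in its single probe set above the floor, 1421346_a_at. Its other 2 probe sets were far below the floor. Slc6a8, the creatine transporter, was lower in both of its probe sets. Probe set 1417116_at read 322.4 in the Cbs null sample and 457.3 in the control sample, 1.42-fold lower, and 1448596_at read 94.9 in the Cbs null sample and 156.3 in the control sample, 1.65-fold lower. The pair of log2 ratios, -0.50 and -0.72, differed by 0.22, the size of 1 technical SD. That SD is for a single log2 ratio, and a difference between 2 ratios carries the error of both. Slc6a8 was thus the one transporter that was lower in a pair of probe sets above the floor, although neither reached 2-fold. Slc6a9, the glycine transporter GlyT1, differed little in both of its probe sets. It read 163.6 in the Cbs null sample and 152.6 in the control sample in one, and 57.3 in the Cbs null sample and 54.0 in the control sample in the other. Slc6a12, which carries betaine and GABA, Slc6a14, a broad carrier of neutral and cationic amino acids, and Slc6a20a, a carrier of proline and other imino acids, were under the floor on both arrays.

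The exchangers of the SLC7 family and their heavy chain gave modest differences in both directions. Slc3a2, the heavy chain shared by several light chains, read 557.0 in the Cbs null sample and 505.7 in the control sample, a log2 ratio of 0.14. Slc7a5, the light chain that takes up large neutral amino acids such as leucine, read 88.5 in the Cbs null sample and 65.5 in the control sample, 1.35-fold higher. Slc7a8, a related light chain with a wider range, read 143.0 in the Cbs null sample and 121.8 in the control sample, 1.17-fold higher. Slc3a2, Slc7a5 and Slc7a8 were thus slightly higher, and the other light chains were lower. Slc7a7, the light chain that exchanges cationic for neutral amino acids, read 85.6 in the Cbs null sample and 108.2 in the control sample, 1.26-fold lower. Slc7a10, the carrier of small neutral amino acids including D-serine, read 52.0 in the Cbs null sample and 71.1 in the control sample, 1.37-fold lower. The 4 light chains had a median log2 ratio of -0.05, between -0.45 and 0.43, and each rested on 1 probe set.

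The carriers of cationic amino acids gave no usable signal. Slc7a1, Slc7a2 and Slc7a3, which import arginine and lysine, were under the floor on both arrays in all of their probe sets. So was Slc3a1, the heavy chain of renal cystine and dibasic amino acid transport.

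Slc16a1 and Slc38a1 were lower in the Cbs null sample. Slc16a1, the widely expressed lactate and pyruvate carrier, read 284.2 in the Cbs null sample and 386.7 in the control sample, 1.36-fold lower. Slc38a1, a sodium-coupled glutamine carrier, read 576.6 in the Cbs null sample and 740.7 in the control sample, 1.28-fold lower. Slc38a2, the related carrier that amino acid shortage induces, was bright and nearly equal, at 1059.9 in the Cbs null sample and 1107.3 in the control sample. Slc16a6, another member of the monocarboxylate family, hardly differed, with a log2 ratio of -0.08. All 4 of these genes were below 0 on the log2 scale, from -0.44 for Slc16a1 to -0.06 for Slc38a2, and each had 1 probe set. Slc16a3, the lactate exporter of glycolytic cells, and Slc16a7, a high-affinity pyruvate carrier, were below the floor in both samples, as were Slc38a3, a glutamine carrier of liver and brain, and Slc38a4, an imprinted carrier of liver and placenta. Slc43a3, a family member known to carry purine nucleobases, read 191.4 in the Cbs null sample and 171.9 in the control sample. Slc25a13, the mitochondrial aspartate and glutamate exchanger citrin, read 68.4 in the Cbs null sample and 59.2 in the control sample. Both were slightly higher, by 1.11-fold and 1.16-fold.

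**Figure D3:**
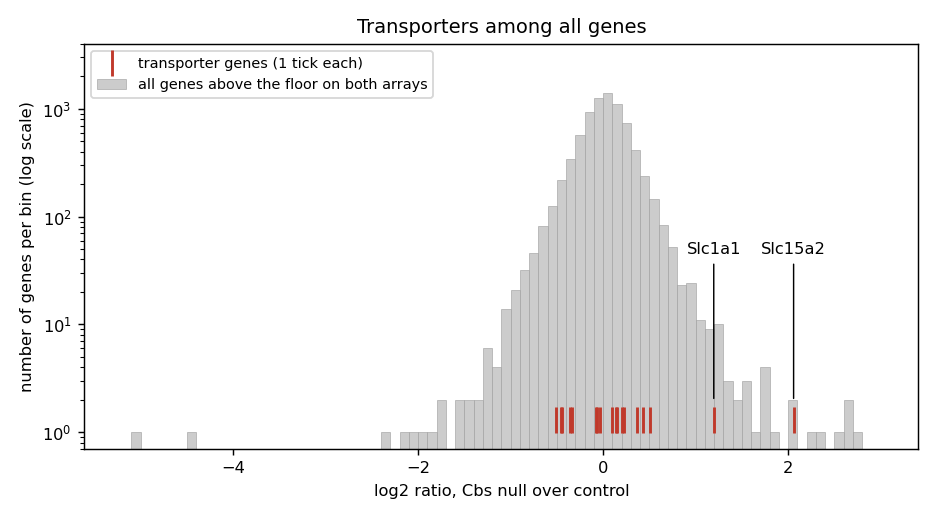
Number of genes (log axis) by log2 ratio of Cbs null over control, for 7942 genes with both signals above the floor, with a red tick for each of the 18 transporters among them. Slc15a2 at 2.06 and Slc1a1 at 1.20 lie in the upper tail and the other 16 ticks lie between -0.50 and 0.50.

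Other carriers with the same kinds of substrate did not reach 1.5-fold, which 3.59% of all measured genes passed as higher and 3.38% as lower. In lists as short as those below, a count of 0 is close to these shares. Of 40 further amino acid, peptide and monocarboxylate carrier genes written down, 20 had a probe set of their own. Of these, 7 were above the floor, all on both arrays, 3 higher and 4 lower, with a median log2 ratio of -0.08. The widest difference was in Slc7a4, at 91.2 in the Cbs null sample and 67.0 in the control sample, 1.36-fold higher. Slc38a10 read 864.9 in the Cbs null sample and 913.9 in the control sample, and Slc7a6, a second cationic and neutral exchanger, 130.7 in the Cbs null sample and 153.7 in the control sample. The cystine importer gene Slc7a11 was under the floor on both arrays. Of the mitochondrial amino acid carriers, 6 were above the floor, Slc25a13 among them, with a median of -0.12 and no member past 1.5-fold. The 2 with the highest mean log2 signal over both arrays were Slc25a38, the glycine carrier, at 119.2 in the Cbs null sample and 118.4 in the control sample, and Slc25a29, a basic amino acid carrier, at 105.8 in the Cbs null sample and 121.1 in the control sample. By the probe set that represents each gene, the widest difference of that list was in Slc25a44, 1.34-fold lower. That probe set read 91.7 in the Cbs null sample and 123.0 in the control sample. A second Slc25a44 probe set hardly differed, at 86.2 in the Cbs null sample and 84.0 in the control sample, a log2 ratio of 0.04. The Slc25a29 probe sets above the floor ran from a log2 ratio of -0.51, which is 1.42-fold lower and wider than Slc25a44, to 0.01.

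Genes for proteins that partner or regulate the carriers gave small differences. Bsg, the chaperone that brings lactate carriers to the surface, read 1039.3 in the Cbs null sample and 1171.8 in the control sample. Sgk1, a kinase that raises the activity of several carriers, read 586.1 in the Cbs null sample and 856.4 in the control sample, 1.46-fold lower. Of 5 such genes above the floor, 1 was higher and 4 lower, none by 1.5-fold, with a median log2 ratio of -0.15. Of all genes above the floor on both arrays, 53.6% were higher. Ldha, the lactate dehydrogenase subunit that works beside the lactate carriers, read 1205.9 in the Cbs null sample and 1324.1 in the control sample, and the glycolytic enzyme gene Pgk1 843.5 in the Cbs null sample and 1003.7 in the control sample. The 6 lactate metabolism genes had a median of -0.19, again with none past 1.5-fold.

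Genes that cells induce when amino acids run short gave no common direction. Of 24 written down, 23 were on the array and 20 above the floor on both arrays. Of these 20, 9 were higher and 11 lower, with a median log2 ratio of -0.04. Over all genes above the floor on both arrays, 53.6% were higher. Asns, asparagine synthetase and a classical reporter of that response, read 292.9 in the Cbs null sample and 297.8 in the control sample. The transcription factor gene Atf4 read 604.2 in the Cbs null sample and 677.5 in the control sample. At least 1.5-fold higher were Ddit4, an inhibitor of mTORC1 signalling, at 465.8 in the Cbs null sample and 275.0 in the control sample, and Gpt2, the mitochondrial alanine transaminase, at 241.0 in the Cbs null sample and 155.4 in the control sample. None of the 20 was at least 1.5-fold lower, and Trib3, Chac1 and Sesn2 were below the floor in both samples.

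Markers of the cell types in the tissue also differed between the samples, list by list. Hoxa10, Hoxa11 and Hoxd10, which mark the uterus, were far above the floor in both samples. The 6 uterus markers above the floor on both arrays had a median log2 ratio of 0.04, with 3 higher and 3 lower. Msx1 was the one past 1.5-fold, 1.64-fold higher, and its second probe set was 1.24-fold higher. Esr1 was below the floor in both, and Pgr read 36.8 in the Cbs null sample and 49.1 in the control sample, under and over the floor. Of the uterine epithelium markers, 14 of 15 were on the array and none of these was below the floor in both samples. All 12 above the floor on both arrays were higher in the Cbs null sample, with a median log2 ratio of 0.54 and a summed signal over the 14 of 7949 in the Cbs null sample and 5415 in the control sample. Macrophage and dendritic cell markers were higher in 13 of 13 (median 0.56, summed signal 9245 in the Cbs null sample and 6291 in the control sample). Smooth muscle markers were lower in 9 of 9, with a median of -0.52 and a summed signal over 10 of 27452 in the Cbs null sample and 34730 in the control sample. Synpo2, the remaining one of the smooth muscle list, was below the floor in both. Beside these counts, 53.6% of all 7942 genes above the floor on both arrays were higher in the Cbs null sample. Endothelial markers had a median of 0.02 and adipocyte markers of -0.34. The 4 natural killer cell markers above the floor on both arrays had a median of -0.01 and the 4 decidual markers of 0.06. These medians leave out the markers above the floor in the control sample alone, whose direction is fixed by that filter. Gzma, Gzmb and Gzmc were at least 2.62-fold, 4.12-fold and 2.92-fold lower in the Cbs null sample. Of the decidual markers, Prl8a2 was at least 9.82-fold lower, the representing Tdo2 probe set at least 15.9-fold and Alpl at least 1.09-fold. None of the 6 trophoblast markers on the array was above the floor. The part of these cell types in the transporter values was not tested, and fewer cells of a type and less RNA per cell cannot be told apart in whole tissue. By the probe set that represents each gene, the 12 epithelial markers above the floor on both arrays ran from 0.06 to 1.05. The Slc1a1 ratio (1.20) lay above all of them. Over its 4 probe sets the epithelial marker Cldn3, the highest of the 12, had log2 ratios from 1.05 to 1.41. Muc1 was at least 2.80-fold higher but passed the floor through the Cbs null sample alone. The brightest Slc15a2 probe set (2.06) lay above the Cldn3 ratios and the second (0.20) below the median of the epithelial list.

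**Figure D4:**
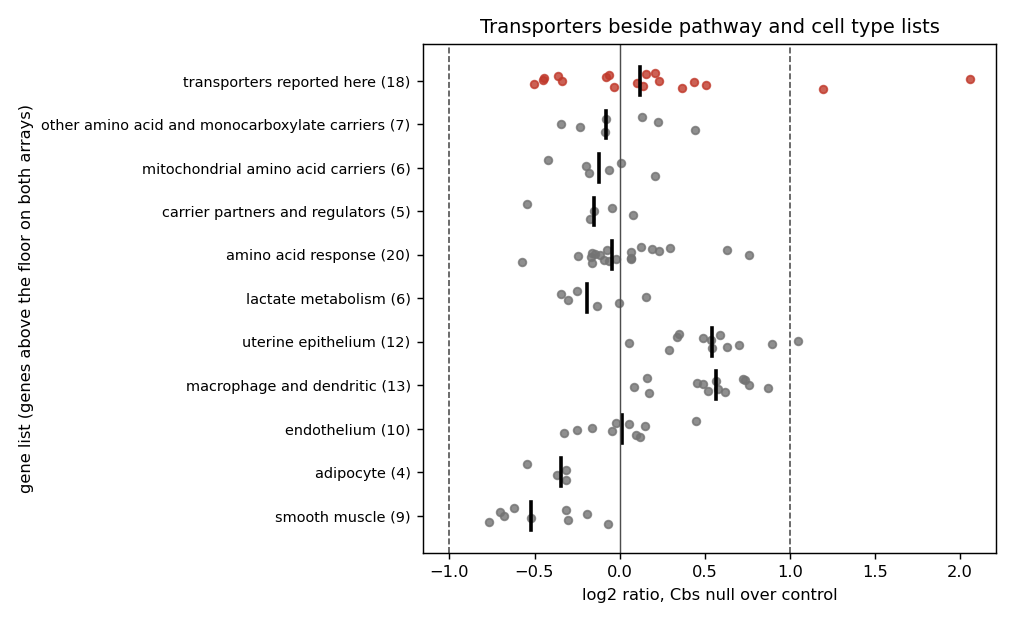
Log2 ratio of Cbs null over control of each gene above the floor on both arrays, by list, with the number of genes in brackets, black bars at the medians and dashed lines at 2-fold. The transporters (median 0.12) spread on both sides of 0, the epithelium and macrophage lists lie above it and the smooth muscle list below it.

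Cbs itself had a weak signal, lower in the sample labelled null. It read 42.6 in the Cbs null sample, barely under the floor, and 79.8 in the control sample, at least 1.85-fold lower, and its other probe set was below the floor in both. Median signals were close, at 75.6 in the Cbs null array and 74.55 in the control array, and each difference is relative to the total signal of its array. For the 14 transporters under the floor on both arrays no difference was detectable here, which does not show that they are absent.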

How the data were processed

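Biotin-labelled cRNA made from 2 microg of total RNA of inter-implantation uterus was hybridised to 1 array per group, per the labels' protocols. The authors deposited linear intensities, 1 for each probe set on each array. GCOS 1.4 appears in the submitters' processing notes. How probes were summarised and to what target arrays were scaled is not stated there. Both arrays had a 2% trimmed mean of 200.1 and were used as deposited. Of 22690 probe sets, 64 were array controls, 20380 had 1 gene symbol in the platform annotation, 691 several and 1555 none, and no probe set with several symbols named a transporter of the set. All 37 symbols matched a RefSeq gene table (GRCm38.p6).

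Samples were grouped by the genotype label. Signals under the floor of 43.2 were raised to it, a gene was represented by its brightest 1-symbol probe set, and where 1 of the 2 values was under the floor the fold is a lower bound. With 1 array per group no test was possible, and genes were described by a 2-fold rule, with 1.5-fold for detail. The technical SD came from the 2 brightest probe sets of each gene above the floor on both arrays. The number of arrays limits the precision. Computation used Python 3.11.15, numpy 2.4.6 and pandas 2.3.3, and the scripts were tested on simulated data. Named genes were all members, up to 6 genes of each pathway list at least 1.5-fold apart or else its 2 brightest, and markers by list. Other genes named, such as Slc7a11, Atf4, Asns, Hoxa10, Hoxa11, Hoxd10, Slc25a44, Cldn3, Muc1 and the granzyme and decidual genes, were picked after their values were seen. Promoter motifs were also chosen then. Members and lists were chosen with earlier results of these data known.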

Additional observations from a re-analysis of the deposited data

How the results depend on the processing

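No paired analysis was possible because each group has 1 array, and for the same reason no array could be left out. Centring on the median ratio, quantile normalization, a pseudocount of 16, leaving out probe sets with a letter before _at, and a filter on mean signal each kept Slc1a1 and Slc15a2 as the transporters at least 2-fold higher and 0 as at least 2-fold lower. The count of higher transporters was 1, Slc15a2 alone, when the floor was the 60th percentile, with probe sets averaged within genes, and at a 3-fold rule. Averaging gave log2 ratios of 0.74 for Slc1a1, whose dimmest probe set then counts as 0, and 1.13 for Slc15a2. The 60th percentile floor lies above the Slc1a1 control value, so its 0.49 there is a lower bound. With the floor at the 20th percentile 1 transporter, Slc38a3, was at least 2-fold lower, although both of its signals lie under the floor used here. The median of the transporters stayed between 0.032 and 0.147 under the 7 alternatives run for it. Class medians rest on few genes, and most of their shifts come from which genes were left. With the 60th percentile floor the SLC1 value of -0.036 was Slc1a5 alone and the SLC7 light chain value of 0.232 Slc7a8 alone. Without probe sets with a letter before _at the light chain median was 0.232 over 3 genes, and the SLC6 value of -0.202 lay midway between Slc6a8 and Slc6a9, since Slc6a6 had no probe set above the floor. With averaged probe sets the SLC1 median was 0.123. Of 122 recomputed ratios of single transporters, 116 moved by less than the technical SD and 6 by more. Many could hardly move, since averaging leaves genes with 1 probe set as they were, and a changed floor leaves values above it. A change of sign from a 2-fold call was possible for Slc1a1 and Slc15a2 only, and 0 occurred. Signal close to the floor limits several transporters, among them Slc1a1, Slc1a3, Slc1a4 and Slc7a10, and the differences have no replicate check.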
